A study of Mus musculus with 12 samples.

Results

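Expression of 10 genes that handle calcium in heart muscle cells was followed in the hearts of Balb/c mice (an inbred strain) after an oral dose of a compound labelled DMA. The genes were Ryr2, Casq2, Cacna1c, Cacnb2, Slc8a1, Camk2d, Jph2, Asph, Hrc and Trdn. They were chosen by their symbol in the platform annotation and not by a cut on measured values, though earlier results of these data were known. They are 10 of 18027 genes that had a value, and each was read by its probe with the highest mean. The array carried 16 probes named for these genes alone, and all 10 genes had enough values to be tested, among 17611 tested genes in all.

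Mice were gavaged with DMA at 30 mg/kg body weight, or with its vehicle dimethyl sulfoxide (DMSO), and hearts were taken 24 h or 48 h later. Each treatment was thus read at both times, in 4 groups of 3 arrays. All 12 arrays are of heart muscle RNA from mice with no genetic change stated, and the labels used here do not expand the abbreviation DMA or give the age or sex of the animals. The series' design text says that RNA was isolated from each group's hearts as a pool, while the labels call the 3 arrays of a group biological replicates. The p-values below therefore measure the spread between these arrays, which may be partly technical.

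As background, each heartbeat begins when calcium enters the cardiomyocyte through L-type channels in the T-tubule membrane. This calcium opens ryanodine receptors on the sarcoplasmic reticulum (SR), the cell's internal calcium store, and the larger release that follows drives contraction. The calcium is then pumped back into the SR or carried out of the cell by sodium-calcium exchange. Cacna1c encodes the pore and Cacnb2 an auxiliary subunit of the L-type channel. Ryr2 encodes the release channel, Casq2 the calcium buffer inside the SR, and Trdn (triadin) and Asph (whose products include junctin) membrane proteins that tie the buffer to the channel. Hrc encodes a histidine-rich calcium binding protein of the SR. Jph2 (junctophilin) holds T-tubule and SR membranes together, Slc8a1 is the sodium-calcium exchanger, and Camk2d is the main cardiac subunit of calcium/calmodulin-dependent kinase II. A heart sample contains many cell types, so fewer cardiomyocytes and less RNA per cardiomyocyte cannot be told apart in these values.

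The values were log2 intensities, on which a difference of 1 is a doubling. Array medians were 6.03 to 6.04 at 24 h and 6.35 to 6.36 at 48 h, as if each time had been scaled on its own, so levels of the same gene are set against each other only within a time. Levels of different genes come from different probes and cannot be ranked. One array stood apart. The correlation with the median of the remaining arrays of its time was 0.742 for DMA 24 h replicate 3, where it was 0.927 to 0.963 for the 11 others. Among probes with a median of at least 8, 58.5% lay more than 1 log2 unit from the rest of the time on that array, against 2.93% to 12.8% on the other 11. DMA 48 h replicate 3 carried a trend along the probe numbers, from a median deviation of 0.35 in the first 10% of the probes to -0.95 in the last 10%. Cardiomyocyte markers could be followed only in part: of 14 listed markers, Actc1 was blank on all arrays, and Tnni3, Myl2, Mb and Pln were each measured on a single array.

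The 10 calcium handling genes followed that array. On DMA 24 h replicate 3, 7 of the 10 had the lowest value of the 24 h arrays, where 31.7% of all genes did, and 3 had the highest, where 42.1% of all genes did. Cacna1c lay 6.26 log2 units below the median of the other 24 h arrays, Trdn 5.76 below, Casq2 5.60 below, Hrc 4.42 below and Slc8a1 4.12 below, while Camk2d and Jph2 lay 1.51 and 1.33 below. Ryr2 lay 1.89 above, Asph 1.46 above and Cacnb2 0.51 above. The mean of the 4 cardiomyocyte markers with all values (Myh6, Actn2, Ankrd1 and Ckm) was 5.19 on this array and 7.08 to 9.49 on the other 24 h arrays. Marker means of other cell types were also lowest there. They were 7.24 against 8.56 to 9.09 for 2 macrophage markers and 7.72 against 8.91 to 10.41 for 4 smooth muscle markers. For 1 red blood cell marker the value was 3.84 against 4.72 to 5.34. Single markers did not all follow their mean. The 24 h difference of C1qb was -1.32 with all arrays and 0.03 without that array, and that of Adgre1 0.68 and 0.54. Among smooth muscle markers it was -1.48 and -0.05 for Cnn1, and 0.66 and 0.83 for Acta2. Among the 4 cardiomyocyte markers it was -2.28 and 0.26 for Ankrd1, and -0.27 and 0.77 for Actn2. For Myh6 it was 0.49 and 1.17, and for Ckm 0.42 and 1.42. All 4 were thus lower with that array included, by unequal amounts. The means of 5 endothelial (7.26), 3 fibroblast (8.64) and 3 skeletal muscle markers (4.996) with all values lay within the range of the other 24 h arrays. Single endothelial and fibroblast markers went both ways. The 24 h difference with all arrays and without that array was -1.89 and 0.86 for Emcn, and 1.09 and 0.30 for Erg. For Col3a1 it was -2.34 and 0.03 and for Dcn -2.07 and 0.74, both left out of the mean for a blank. For Col1a1 it was 1.36 and 0.67. The part of these markers in the values of the 10 genes was not tested. On each of the other 11 arrays at most 1 of the genes lay more than 1 unit from the rest of its time.

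**Figure D1:**
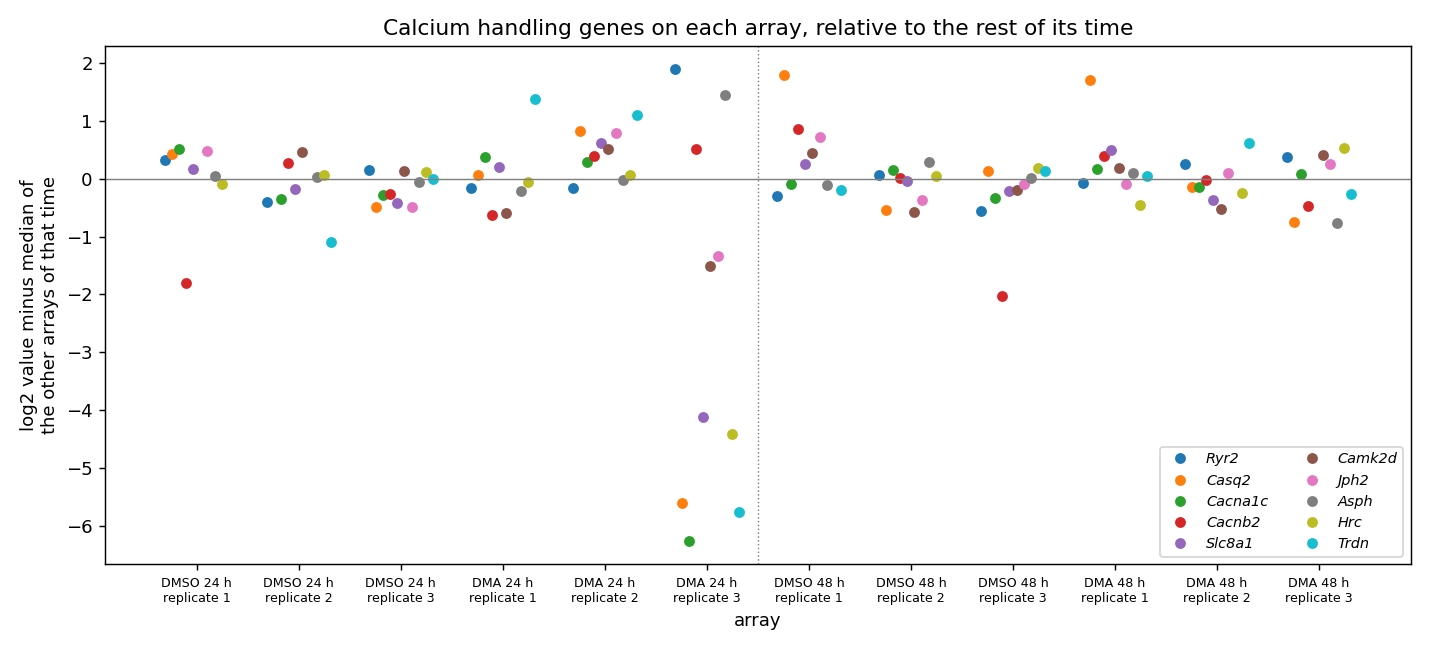
Each point is the log2 value of a calcium handling gene on an array (x axis, 12 arrays) minus the median of the other arrays of the same time (y axis, log2 units), with 24 h left and 48 h right of the dotted line. On DMA 24 h replicate 3, 9 of 10 genes lie more than 1 unit from the rest, 7 of them below. Of all probes, 52.9% lie more than 1 unit from the rest on that array. Among probes with a median of at least 8, 36.9% lie more than 1 unit below.

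Of the 120 values of these genes, 9 were missing, and 7 genes lacked at least 1 value. The gaps were 6 of 60 values on the DMSO arrays and 3 of 60 on the DMA arrays, and over all probes 5.15% of DMSO and 2.01% of DMA values were missing. Ryr2, Cacna1c and Cacnb2 had all 12 values. Casq2 lacked a value on DMSO 24 h replicate 2, Slc8a1 on DMA 48 h replicate 3, Asph on DMA 48 h replicate 2 and Hrc on DMSO 48 h replicate 1. Camk2d had none on DMSO 24 h replicate 1. Jph2 was missing on DMSO 24 h replicate 2 and DMA 24 h replicate 1, and Trdn on DMSO 24 h replicate 1 and DMSO 48 h replicate 2. No value of these genes was the lowest of its array.

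The question at each time was whether DMA hearts differed from vehicle hearts. None of the 10 genes passed the test at 24 h or 48 h. The limma fit over 35401 probes called 0 at 24 h (0%), with 1071 at an unadjusted p under 0.05, and 0 at 48 h (0%), with 494 at an unadjusted p under 0.05. None of the 10 genes had an unadjusted p under 0.05 at either time, where 2.82% of all genes did at 24 h and 1.02% at 48 h. In no case were the 3 DMA arrays clear of the DMSO arrays: 0 of 10 genes were higher without overlap at 24 h (4.42% of all genes) and 0 lower (3.29%), and at 48 h likewise 0 higher (3.95%) and 0 lower (2.33%).

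**Figure D2:**
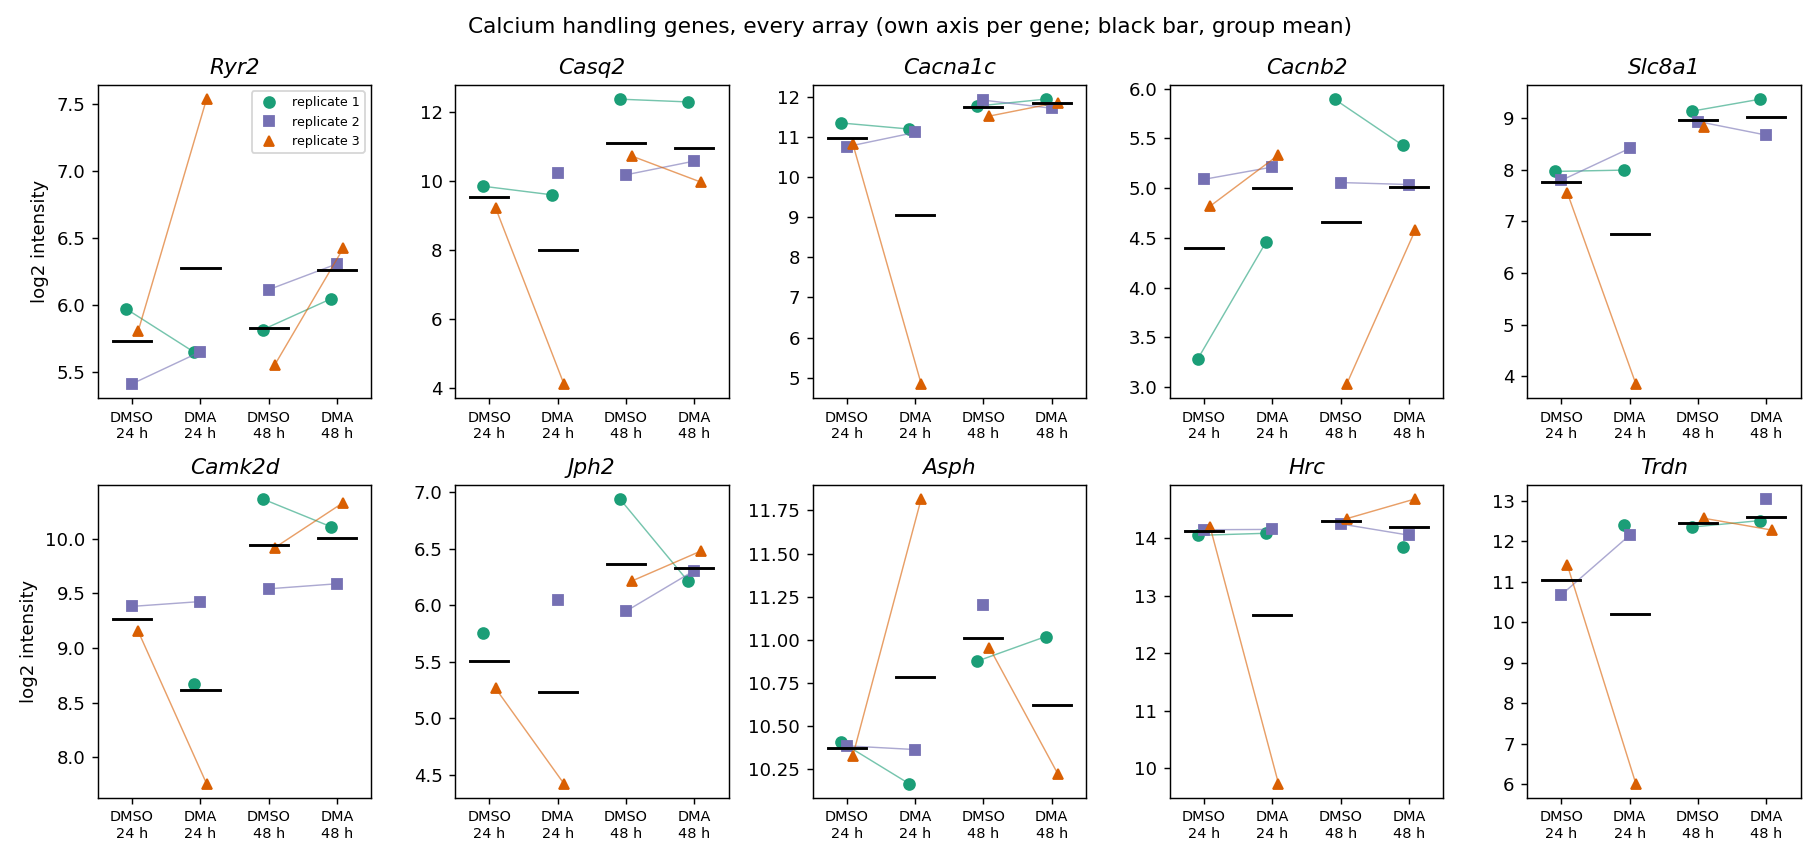
Log2 intensity (y axis, own scale for each gene) of the 10 genes on every array in the 4 groups (x axis); lines join DMSO and DMA arrays of the same replicate number and black bars are group means. The orange triangle of DMA at 24 h is far from the other 24 h points in most panels, and at 48 h the DMA and DMSO points overlap for every gene.

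The L-type channel genes were taken first. The brightest Cacna1c probe read 11.34, 10.75 and 10.82 on DMSO 24 h replicates 1 to 3 and 11.19, 11.11 and 4.85 on the DMA 24 h replicates. DMA replicates 1 and 2 lay within the DMSO range and replicate 3 far below it. The difference at 24 h was -1.92 (SE 1.29, limma adjusted p = 0.871), and 0.18 (SE 0.27) without that array. At 48 h the DMSO values were 11.76, 11.91 and 11.51 and the DMA values 11.93, 11.71 and 11.85. These 6 values lay close together, with an SD of 0.20 over DMSO and 0.11 over DMA, and differed by 0.10 (SE 1.29, adjusted p = 1). This large SE comes from the spread pooled over the 4 groups, which includes DMA 24 h replicate 3, and it was 0.24 without that array.

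Other Cacna1c probes did not share the low value. A pair of dimmer probes, with means of 6.18 and 6.17 near the array medians, read 6.80 and 6.40 on DMA 24 h replicate 3, each the highest of its 24 h values. Their differences were 0.11 (SE 0.38) and 0.04 (SE 0.38) at 24 h, turning to -0.22 (SE 0.30) and -0.09 (SE 0.33) once that array was left out, and -0.07 (SE 0.38) and 0.08 (SE 0.34) at 48 h.

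Cacnb2 was dim, with a mean of 4.77. It read 3.29, 5.09 and 4.82 after DMSO and 4.46, 5.21 and 5.33 after DMA at 24 h. The DMA array was the higher in all 3 same-numbered pairs, by 1.17, 0.12 and 0.51, yet the groups overlapped. The difference was 0.60 (SE 0.70, adjusted p = 0.879), and 0.05 without DMSO 24 h replicate 1, the lowest array. At 48 h Cacnb2 read 5.89, 5.06 and 3.03 after DMSO and 5.43, 5.04 and 4.58 after DMA, a difference of 0.35 (SE 0.70, adjusted p = 1). Without DMSO 48 h replicate 3 the difference was -0.46, and without DMSO 48 h replicate 1 it was 0.97, so its sign rested on single arrays.

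Genes of the SR release unit followed. The Ryr2 probe lay near the array medians and read 5.97, 5.41 and 5.81 after DMSO and 5.65, 5.65 and 7.54 after DMA at 24 h. Only replicate 3 lay above the DMSO range. The difference was 0.55 (SE 0.49, adjusted p = 0.871), and -0.08 (SE 0.28) without that array. At 48 h Ryr2 read 5.82, 6.12 and 5.56 after DMSO and 6.05, 6.31 and 6.42 after DMA. Among the 10 genes, Ryr2 alone had the DMA array higher in each of its 48 h pairs, by 0.23, 0.19 and 0.87, where 28.4% of all genes had a single direction over their 48 h pairs. The groups still overlapped, with 6.05 on a DMA array and 6.12 on a DMSO array. The difference was 0.43 (SE 0.49, 95% interval -0.64 to 1.5, adjusted p = 1). It ranged from 0.29 to 0.57 over the arrays left out, and was 0.23 with the trend along probe number removed. The SE was 0.25 without DMA 24 h replicate 3 (unadjusted p = 0.119, adjusted p = 1). The other Ryr2 probe had no value on any array.

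Casq2, the calsequestrin of heart muscle, read 9.84 and 9.22 on DMSO 24 h replicates 1 and 3 and 9.59, 10.24 and 4.12 on the DMA 24 h arrays. Its difference was -1.55 (SE 1.55, adjusted p = 0.872), and 0.38 (SE 0.86) without DMA replicate 3. At 48 h Casq2 read 12.36, 10.17 and 10.71 after DMSO and 12.28, 10.57 and 9.97 after DMA, a difference of -0.14 (SE 1.38, adjusted p = 1). Here the spread ran along the replicate number and not along the treatment: both replicate 1 arrays lay above the other 4 arrays of 48 h, and the pair differences were -0.08, 0.40 and -0.75. Cacnb2 and Slc8a1 also had both replicate 1 arrays above the other 48 h arrays, 3 of 9 genes with both values, where 17.4% of all genes did. Marker means of several cell types also had both replicate 1 arrays on top, though the order of the other arrays differed. The mean of the same 4 markers was 11.62 and 11.22 on the DMSO and DMA replicate 1 arrays of 48 h and 8.25 to 10.12 on the other 4. The mean of 5 endothelial markers was 10.14 and 9.99 against 8.10 to 9.55, and that of 3 fibroblast markers 10.45 and 10.24 against 8.48 to 9.46. The top position of these arrays was thus not confined to cardiomyocyte markers. Markers of smooth muscle, macrophages, red blood cells and skeletal muscle did not have both replicate 1 arrays on top. The part of these markers in the Casq2 values was not tested.

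Trdn, read by its brightest probe, was 10.68 and 11.41 on DMSO 24 h replicates 2 and 3 and 12.41, 12.15 and 6.02 on the DMA 24 h arrays. DMA replicates 1 and 2 lay above both DMSO values and replicate 3 below them. The difference was -0.85 (SE 1.59, adjusted p = 0.913), and 1.24 (SE 0.39, unadjusted p = 0.0137, adjusted p = 1) without DMA replicate 3. The second Trdn probe, which had a value on every array, read 6.96, 8.09 and 7.95 after DMSO and 7.19, 7.24 and 4.17 after DMA, a difference of -1.47 (SE 0.72, adjusted p = 0.871), and -0.45 (SE 0.41) without DMA replicate 3. Both probes were thus negative with all arrays, and their signs differed once that array was left out. At 48 h the brightest probe read 12.35 and 12.57 on DMSO replicates 1 and 3 and 12.51, 13.05 and 12.28 after DMA, a difference of 0.15 (SE 1.59, adjusted p = 1). The second probe differed by -0.08 (SE 0.72) at 48 h.

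Asph encodes several proteins from 1 gene, among them junctin and an aspartyl hydroxylase. Its brightest probe read 10.41, 10.38 and 10.33 after DMSO at 24 h, the tightest DMSO group of the 10 genes at that time (SD 0.042), and 10.16, 10.36 and 11.82 after DMA. The difference was 0.41 (SE 0.46, adjusted p = 0.878), and -0.11 (SE 0.30) without DMA replicate 3. The other Asph probe read 6.0 on that array and 8.20 to 8.64 on the other 24 h arrays, so the probes of this gene moved in opposite directions there. Its difference was -0.79 (SE 0.58), and 0.03 (SE 0.27) without the array. At 48 h the brightest probe read 10.88, 11.201 and 10.95 after DMSO and 11.02 and 10.22 on DMA replicates 1 and 3. The difference of -0.39 (SE 0.51, 95% interval -1.53 to 0.75, adjusted p = 1) was the most negative of the 10 genes at 48 h. It rested on DMA 48 h replicate 3, without which it was 0.0079. It was -0.0553 with the trend along probe number removed, and the other Asph probe differed by 0.11 (SE 0.58).

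Hrc gave a bright signal that was even at 24 h apart from a single array, and less so after DMA at 48 h (SD 0.44). Its values lay near the top of the scale, with 14.69 on DMA 48 h replicate 3, where the array maximum was 14.86. It read 14.05, 14.15 and 14.20 after DMSO and 14.09, 14.16 and 9.73 after DMA at 24 h. The first pair of same-numbered arrays differed by 0.036 and the second by 0.0056, and the third by -4.46. The difference was -1.47 (SE 0.97, adjusted p = 0.871), and -0.01 (SE 0.30, 95% interval -0.69 to 0.67) without DMA replicate 3. At 48 h Hrc read 14.25 and 14.34 on DMSO replicates 2 and 3 and 13.85, 14.06 and 14.69 after DMA, a difference of -0.10 (SE 1.08, adjusted p = 1).

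Jph2, of the membrane contact, was dim and incompletely measured at 24 h. It read 5.75 and 5.26 on DMSO replicates 1 and 3 and 6.05 and 4.42 on DMA replicates 2 and 3, so that only the third pair was complete. The difference was -0.27 (SE 0.59, adjusted p = 0.926), and 0.54 (SE 0.49) without DMA replicate 3, which left 1 DMA value, assumed to vary like the other groups. At 48 h Jph2 read 6.94, 5.95 and 6.21 after DMSO and 6.21, 6.31 and 6.48 after DMA, a difference of -0.04 (SE 0.48, 95% interval -1.12 to 1.05, adjusted p = 1).

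The exchanger gene Slc8a1 read 7.97, 7.80 and 7.55 after DMSO and 8.0, 8.42 and 3.85 after DMA at 24 h. DMA replicates 1 and 2 lay above the 3 DMSO values and replicate 3 far below. The difference was -1.02 (SE 0.96, adjusted p = 0.871), and 0.44 (SE 0.31) without replicate 3. At 48 h the values were 9.14, 8.94 and 8.83 after DMSO and 9.37 and 8.67 on DMA replicates 1 and 2, a difference of 0.06 (SE 1.08, adjusted p = 1). A dimmer Slc8a1 probe, with a mean of 4.61, differed by 0.54 (SE 0.61) at 24 h and by 0.54 (SE 0.61) at 48 h. On DMA 24 h replicate 3 this dimmer probe read 4.48, within the 3.51 to 5.02 of the other 24 h arrays. A probe shared in the annotation between Mcf2l and Slc8a1 was not used for the gene. That shared probe, with a mean of 12.18, read 12.84 on DMA 24 h replicate 3. Its other 24 h values were 11.80 to 12.02. The low value of the probe used was thus not seen on either of these probes.

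Camk2d, the kinase that phosphorylates several of these proteins, read 9.38 and 9.15 on DMSO 24 h replicates 2 and 3 and 8.68, 9.42 and 7.76 on the DMA 24 h arrays. Both DMA replicates 1 and 3 lay below the DMSO values. The difference was -0.65 (SE 0.51, adjusted p = 0.871), and -0.22 (SE 0.41) without DMA replicate 3, a negative value in either case. At 48 h Camk2d read 10.36, 9.54 and 9.92 after DMSO and 10.11, 9.59 and 10.33 after DMA. The difference was 0.07 (SE 0.46, 95% interval -0.95 to 1.09, adjusted p = 1).

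As a group the 10 genes had 3 positive and 7 negative differences at 24 h, with a median of -0.75. Over all 17611 genes 55.2% were positive and the median was 0.09. Without DMA 24 h replicate 3 the 10 genes had 6 positive and 4 negative differences and a median of 0.28, with a median over all genes of 0.0024, so the sign of the group at 24 h was that of a single array. The same showed in the pairs. The median difference was -0.15 over the 7 genes with values in the first pair, 0.18 over 8 genes in the second and -2.54 over 10 genes in the third. At 48 h there were 6 positive and 4 negative differences, with a median of 0.06 against 0.01 over all genes, of which 51.4% were positive. Pair medians at 48 h were 0.14, 0.01 and 0.34. The differences at 48 h ran from -0.39 to 0.43. A single direction over every available pair was seen for 2 of 9 genes with at least 2 pairs at 24 h, Cacnb2 and Casq2 (26.1% of all genes), and for 1 of 10 at 48 h.

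**Figure D3:**
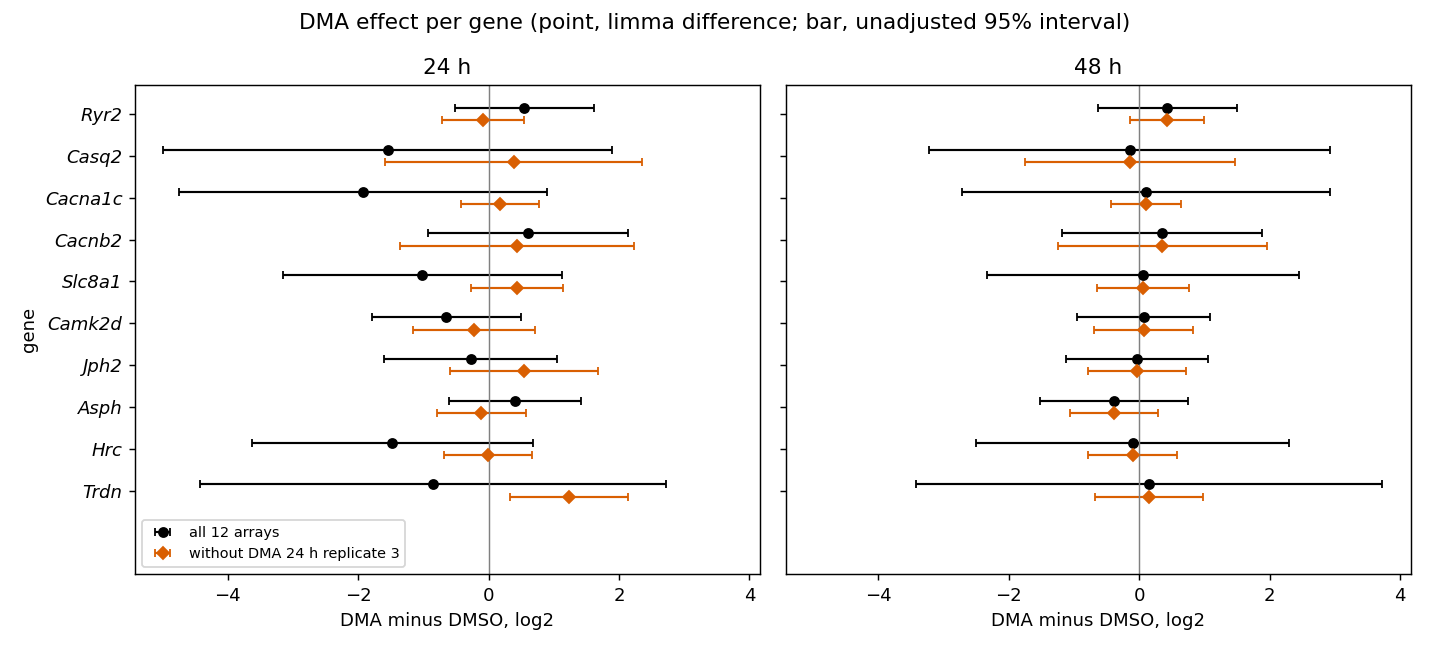
DMA minus DMSO differences (x axis, log2) of the 10 genes (y axis) at 24 h and 48 h, with unadjusted 95% intervals of the limma fit, from all 12 arrays (black) and without DMA 24 h replicate 3 (orange). At 24 h 7 of 10 points change side of 0 on leaving out that array, and at 48 h the points stay and most intervals shorten.

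The change of the DMA effect from 24 h to 48 h was tested directly. The differences between the times ran from -0.80 for Asph to 2.03 for Cacna1c, and the smallest adjusted p was 0.999. Over 35401 probes this test called 0 (0%), with 695 at an unadjusted p under 0.05. The 10 genes had a median difference between the times of 0.86 with all arrays and -0.19 without DMA 24 h replicate 3.

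Precision differed between the genes. With all arrays the 95% interval at 48 h was narrowest for Camk2d and widest for Trdn, from -3.42 to 3.72. Without DMA 24 h replicate 3 the 48 h intervals were -0.44 to 0.64 for Cacna1c, -0.78 to 0.58 for Hrc and -0.65 to 0.76 for Slc8a1. For Casq2 the interval was -1.75 to 1.46 even then. Changes inside these intervals were not excluded. Slc8a1 had 2 DMA values and Hrc 2 DMSO values at 48 h.

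The wider calcium pathway was read from 8 lists of 81 genes, of which 71 had a probe of their own and 69 could be tested. None passed in either direction at 24 h or 48 h (0 of 69 at each time, with limma). At 24 h 33 differences were positive and 36 negative, with a median of -0.03, and at 48 h 30 were positive and 39 negative, with a median of -0.05. The SR calcium pump gene Atp2a2 was blank on all 12 arrays, and its inhibitor phospholamban (Pln) had a value on 1 array, so neither gene could be compared between the groups. Several genes named below had dim probes, with means below the array medians. These means were 3.91 for Camk2b, 4.27 for Slc8b1, 4.44 for Itpr3, 4.94 for Stim1 and Cacna1g, and 5.22 for Atp2b2. Bin1 (5.63) and Ppp3r1 (5.88) also lay below the medians.

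Of the SR pump partners 6 of 8 were tested, with 3 positive and 3 negative differences at 24 h and 4 and 2 at 48 h. Srl, the SR calcium binding protein sarcalumenin, differed by 0.76 (SE 0.44) at 24 h, 0.29 without DMA replicate 3, and by 0.28 (SE 0.44) at 48 h. Calr, the calcium binding chaperone calreticulin, differed by 0.46 (SE 0.33) at 24 h and 0.0448 at 48 h, the latter ranging from -0.15 to 0.19 over the arrays left out.

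Relatives and partners of the release channel had 7 positive and 4 negative differences among 11 at 24 h, and 2 positive and 9 negative at 48 h (median -0.18). Casq1, the calsequestrin of skeletal muscle, differed by 1.48 (SE 0.99) at 24 h and -0.62 (SE 0.99) at 48 h, and the latter ranged from -1.55 to 0.17 over the arrays left out. Itpr3, an inositol trisphosphate receptor, differed by 0.83 (SE 0.51) at 24 h and 0.49 (SE 0.51) at 48 h, ranging from 0.37 to 1.21 and from 0.21 to 0.90 over the arrays left out. Its relative Itpr2 differed by -1.13 (SE 0.74) at 24 h, and -0.06 without DMA 24 h replicate 3. At 48 h the list had 4 positive and 7 negative differences (median -0.05) once DMA 48 h replicate 3 was left out.

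Calcium channel subunits and small GTPases that inhibit them were evenly divided at 24 h, 5 against 5, and stood at 6 positive against 4 negative at 48 h, or 4 against 6 without DMA 48 h replicate 3. Rrad, such a GTPase, differed by 0.72 (SE 0.40) at 24 h and -0.36 (SE 0.40) at 48 h, and the latter was -0.10 without DMA 48 h replicate 3. Cacna1d, the pore of a related L-type channel, differed by -0.64 (SE 0.42) at 24 h and -0.05 at 48 h. Cacna1g, a T-type channel pore, differed by 0.75 (SE 0.78) at 48 h, with a range of -0.0767 to 1.49 over the arrays left out.

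Genes of T-tubule and dyad structure, the sites where both membranes meet, had 5 positive and 4 negative differences at each time, and 7 and 2 at 24 h without DMA 24 h replicate 3. Akap6, an anchor of protein kinase A, differed by -0.69 (SE 0.40) at 24 h, -0.35 without DMA replicate 3, and 0.31 (SE 0.40) at 48 h. Tcap, the titin cap protein, differed by 0.87 (SE 0.53) at 24 h. Bin1, which shapes T-tubules, differed by -1.03 (SE 0.81) at 48 h and by 0.02 without DMA 48 h replicate 3, and the caveolin gene Cav3 by -0.50 (SE 0.48), or 0.03 without it.

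Calcium extrusion and sodium balance had 3 positive and 4 negative differences at 24 h and 1 and 6 at 48 h (median -0.35), or 3 and 4 (median -0.16) without DMA 48 h replicate 3. The calcium pump gene Atp2b2 differed by -0.99 (SE 0.48, unadjusted p = 0.0649, limma adjusted p = 1) at 48 h. At 24 h Atp2b4 differed by -1.92 (SE 1.01), and -0.32 without DMA replicate 3. Slc8b1, the mitochondrial sodium-calcium exchanger, differed by -1.94 (SE 1.03) at 24 h, with a range of -2.75 to -0.46 over the arrays left out.

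Among kinases, phosphatases and protein kinase A subunits 10 of 14 differences were negative at 24 h (median -0.53, and -0.11 without DMA replicate 3), and 7 of 14 at 48 h. Camk2b, a relative of Camk2d, differed by -1.25 (SE 0.61) at 24 h, ranging from -1.79 to -0.46 over the arrays left out, and by 0.54 (SE 0.61) at 48 h. Ppp3r1, the regulatory subunit of calcineurin, differed by -0.75 (SE 0.43) and -0.44 (SE 0.39).

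Mitochondrial calcium uptake had 4 of 7 negative differences at each time. The pore gene Mcu differed by -1.19 (SE 0.92) at 24 h, and 0.18 without DMA replicate 3, and by -0.21 at 48 h. Its regulator Micu3 differed by -2.01 (SE 1.16) at 24 h, and -0.22 without that array. For store-operated entry, the refilling route of emptied stores, 3 of 5 genes were positive at 24 h (median 0.15) and 2 of 5 at 48 h. Without DMA 24 h replicate 3 the 24 h count turned to 0 positive and 5 negative (median -0.26). Stim1, the sensor of store calcium, differed by -0.83 (SE 0.52) at 48 h. Orai2, a channel subunit, differed by -1.12 (SE 0.69) at 24 h, and -0.10 without DMA replicate 3.

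**Figure D4:**
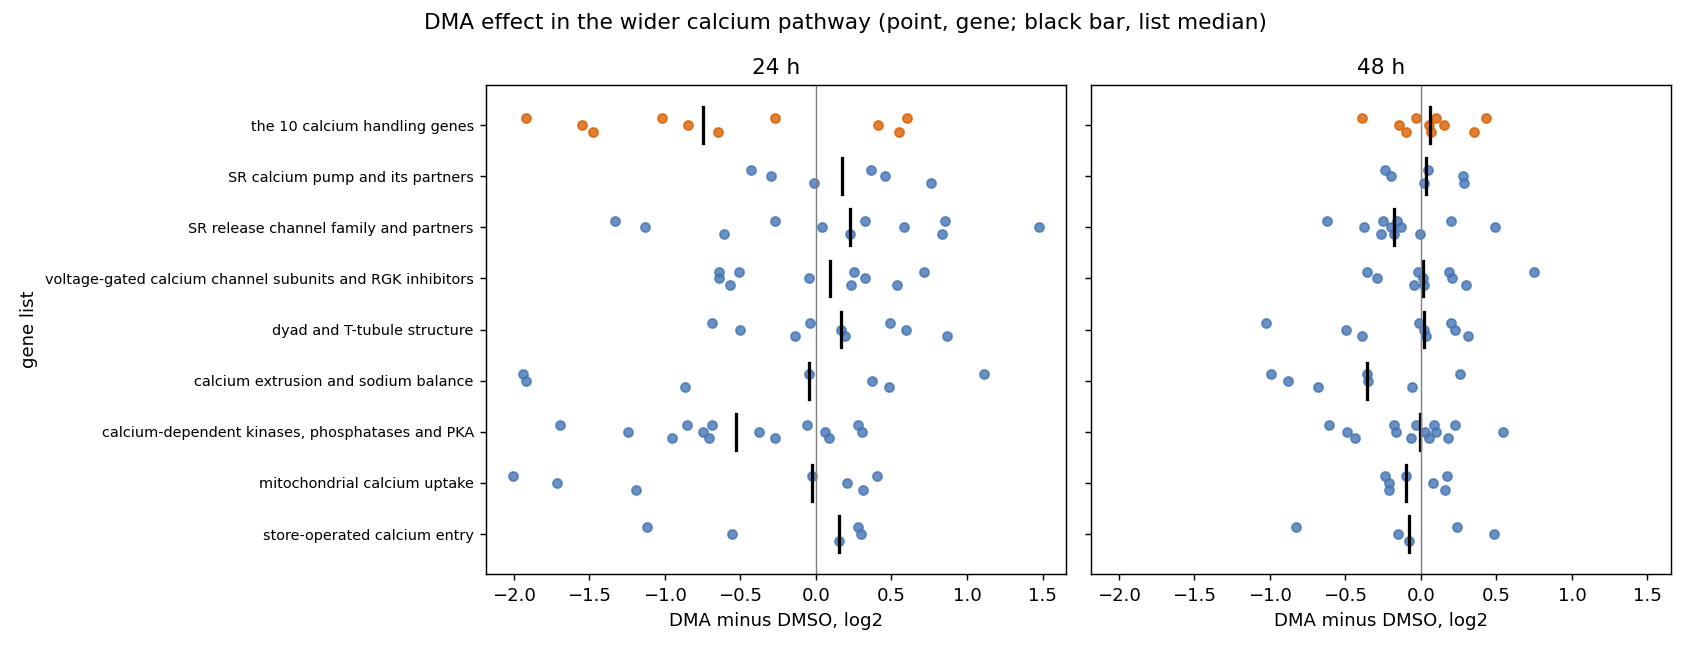
DMA minus DMSO differences (x axis, log2, limma with all 12 arrays) of the 10 calcium handling genes (orange) and of the tested genes of 8 further calcium lists (blue), by list (y axis), with black bars at list medians. Points spread more widely at 24 h than at 48 h, and the 10 genes have medians of -0.75 and 0.06.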

How the data were processed

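The deposited table held the authors' log2 intensities of 36227 probes on 12 one-colour (Cy5) arrays, per the labels. Scanner, background correction and normalization are not given in the sources used here. The number of arrays limits the precision. Gene symbols came from the platform annotation, and a gene was read by its probe with the highest mean, so different probes of a gene can disagree. The genes named were these 10, genes among the 3 smallest unadjusted p of each pathway list at either time, and the 5 of most similar pattern. Genes and lists were chosen with earlier results of these data known. Probes with at least 2 values in each group (35401) entered 1 linear model per probe with the 4 groups as terms, moderated by eBayes (limma 3.58.1, R 4.3.3). P-values were adjusted by Benjamini-Hochberg across these probes, and 0.05 was the threshold. Missing values were not filled. The fit was tested on simulated data.

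Replicate numbers were checked for pairing. Deviations from group means of same-numbered DMSO and DMA arrays correlated at 0.105 to 0.19 at 24 h and 0.276 to 0.335 at 48 h, and those of different numbers at -0.208 to -0.0118 over both times. Deviations from a group mean cancel within the group, so the negative values for different numbers follow in part from the positive ones. Numbers were taken to pair arrays within a time, from the same-number correlations and not from the labels. The main fit did not use this pairing. Alternatives were the replicate block, array weights, other scaling, probe filters and leaving out each array. Plots used matplotlib 3.10.9 in Python 3.11.15.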

Additional observations from a re-analysis of the deposited data

How the results depend on the processing

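No calcium handling gene passed at either time under any setting run: the replicate block, each time alone, array weights, quantile normalization, removal of the trend along probe number, both probe filters, each array left out, or both DMA replicate 3 arrays left out (chosen after seeing the data). The filter for 12 values kept only 3 of the 10 genes and the filter for levels above the median kept 7, so the rest were not tested there. The count of probes called was 0 with all arrays and 0 with the replicate block. Over the arrays left out it was 0 to 14 at 24 h, 0 to 1 at 48 h and 0 to 4 for the difference of the times, and 3 at 48 h without both DMA replicate 3 arrays. The median of the 10 genes ranged from -1.46 to 0.28 at 24 h and from -0.05 to 0.20 at 48 h over the arrays left out.

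Array weights were 0.0838 for DMA 24 h replicate 3, 1.02 for DMA 24 h replicate 2 and 5.0 for DMA 24 h replicate 1. The weighted DMA mean at 24 h thus rested mostly on replicate 1 where it had a value. With these weights the 24 h differences of 7 genes changed sign. They were Ryr2 -0.0608, Casq2 0.21, Cacna1c 0.17, Slc8a1 0.30, Jph2 0.51, Asph -0.14 and Trdn 1.13. At 48 h Casq2 was 0.044, Slc8a1 -0.0061 and Camk2d -0.0494. With the replicate block at 48 h Slc8a1 was -0.0155, Hrc 0.0734 and Trdn -0.0657. At 24 h it moved Casq2 from -1.55 to -2.68 (unadjusted p = 0.0517, limma adjusted p = 0.676), Jph2 from -0.27 to -0.84 and Trdn from -0.85 to -1.96. The block estimates rest on complete pairs only. At 24 h these were pairs 1 and 3 for Casq2, pairs 2 and 3 for Trdn, and pair 3 alone for Jph2. DMA 24 h replicate 3 therefore counted for more in these 3 values than in the main fit. No call changed. With the trend removed Cacna1c was -0.0294 and Camk2d -0.0268 at 48 h. Without a change of sign, Asph went from -0.39 to -0.0553, Ryr2 from 0.43 to 0.23, Jph2 from -0.04 to -0.25, Casq2 from -0.14 to -0.33, Hrc from -0.10 to -0.23 and Trdn from 0.15 to 0.0705 at 48 h, and Jph2 from -0.27 to -0.48 and Asph from 0.41 to 0.26 at 24 h. The mean of the Asph probes was -0.19 at 24 h.

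Over the arrays left out the 24 h differences ranged from -0.0808 to 0.86 for Ryr2, -2.68 to 0.38 for Casq2, -2.99 to 0.18 for Cacna1c, -1.85 to 0.44 for Slc8a1, -1.09 to 0.54 for Jph2, -0.11 to 0.72 for Asph and -1.96 to 1.24 for Trdn. At 48 h they ranged from -0.82 to 0.50 for Casq2, -0.0052 to 0.19 for Cacna1c, -0.46 to 0.97 for Cacnb2, -0.29 to 0.40 for Slc8a1, -0.13 to 0.28 for Camk2d, -0.25 to 0.25 for Jph2, -0.79 to 0.0079 for Asph, -0.35 to 0.0734 for Hrc and -0.0657 to 0.32 for Trdn. The cause of these changes was not tested, beyond the removal of an array. Where an array left out leaves a group with 1 value, that value is assumed to vary like the other groups.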

Other observations

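Of 12354 other genes with all 12 values, the 5 whose values, centred within each time, followed the mean of Cacna1c, Cacnb2 and Ryr2 most closely were Olfr738 (Pearson r = 0.922 over 12 arrays), Stk26 (0.919), Fgb (0.903), Thumpd3 (0.899) and Asgr1 (0.893). The 3 calcium handling genes are those with no missing value, and all points share the arrays. They did not move together on DMA 24 h replicate 3. There Cacna1c lay 6.26 below the median of the other 24 h arrays, while Ryr2 lay 1.89 and Cacnb2 0.51 above. Without DMA 24 h replicate 3 the correlations were 0.765 to 0.863, for genes already picked as the closest on these values. Olfr738 and Fgb read 1.37 on that array, its lowest value.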
